A study of Mus musculus with 11 samples.

Results

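The insulin-like growth factors Igf1 and Igf2 and 6 IGF-binding proteins (Igfbp2, Igfbp3, Igfbp4, Igfbp5, Igfbp6 and Igfbp7) were followed in adipocytes made in culture from the mouse preadipocyte line 3T3-L1. The members were all probe sets (groups of short probes that report 1 transcript) whose annotation names exactly 1 of these 8 genes, which gave 21 of the 45101 probe sets of the array and 8 of 18193 named genes. The 11 Affymetrix arrays fell into 4 groups. Control cells were labelled as having no treatment (n = 3). Chronic insulin (CI, n = 2) was 10 nM insulin in 4 additions that ended on the second day. TNF (n = 3) was 2 ng/ml of the cytokine tumour necrosis factor alpha for 4 days, and DEX (n = 3) was 20 nM of the synthetic glucocorticoid dexamethasone for 8 days with medium changed every other day. The dexamethasone carrier was 0.01% ethanol, and whether the control cells received it is unclear from the labels. All cells were taken on the same day after differentiation, and the study presents the 3 treatments as models of insulin resistance. The model is 1 clonal line in culture, so the source label of adipose tissue stands for these cells and not for whole fat. The arrays of a group are called experimental replicates with nothing said about separate cultures, so the p-values reflect the spread between arrays, part or all of which may be technical.

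IGF1 and IGF2 are secreted peptides that act through the IGF1 receptor, a tyrosine kinase close to the insulin receptor, and fat tissue makes IGF1 both for local use and as a response to growth hormone. The classical IGF-binding proteins hold these ligands outside the cell with high affinity, lengthen their life and keep them from the receptor, and proteases release the ligands again. Igfbp7 binds IGFs only weakly and is usually grouped with the IGFBP-related proteins. Preadipocytes and fibroblasts secrete several binding proteins, and insulin, glucocorticoids and inflammatory cytokines are known regulators of the family in many cell types.

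Intensities are given on the linear scale of the deposited table. Fold changes in words are ratios of mean intensities. Log2 fold changes are differences of log2(intensity + 16) between groups, and the threshold was an adjusted p of 0.05 (Benjamini-Hochberg) in a limma fit over 33778 probe sets. Array medians lay between 124 and 129, and precision is limited by how few arrays a group has. Of the 21 member probe sets 20 passed the filter on dim probe sets (a mean intensity of at least 51.8), and the second Igfbp5 probe set (1452114_s_at) did not, with values of 16.2 to 27.8. The treatments showed in their known target genes. Fkbp5, a glucocorticoid receptor target, rose by 2.71 in DEX and Tsc22d3 by 1.99. The chemokine gene Ccl2 rose by 2.82 in TNF and Saa3 by 5.46. Dusp6, a phosphatase of the ERK pathway, rose by 1.66 in CI. The adipocyte genes Adipoq and Fabp4 were present on all arrays, at 20816 to 23388 and 21646 to 23317. These values lie close to the array maxima of 22501 to 25933, and other adipocyte markers changed, as given with the cell markers below. Hybridization spikes, RNAs added at fixed amounts, had a median log2 difference from control of -0.23 in CI, -0.069 in TNF and -0.046 in DEX. Of the 18 spike probe sets, 18 were lower than control in CI, 18 in TNF and 17 in DEX. The part of the spikes in the results was not tested.

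Each treatment moved a larger share of the member probe sets than of all probe sets, with the largest changes in Igf1 and Igfbp3. In CI 7 of 20 tested member probe sets fell (35%) and 0 rose (0 at an unadjusted p under 0.05), where 6.45% of all tested probe sets fell and 6.41% rose. In TNF 4 rose and 5 fell (20% and 25%), where 10.8% of all rose and 8.15% fell. In DEX 2 rose and 6 fell (10% and 30%), where 11.3% of all rose and 10.9% fell. The share of DEX increases was close to that of all probe sets. Their median log2 fold changes were -0.20, -0.19 and -0.10 in CI, TNF and DEX, against 0.011, -0.016 and 0.018 over all tested probe sets. Probe sets of 1 gene share their target, so the 20 are not independent: 6 report Igfbp4 and 4 report Igf1. Counted by gene, 4 of 8 genes had a probe set that passed in CI, 5 in TNF and 4 in DEX, a rule that favours genes with several probe sets. On the brightest probe set of each gene, 0 of 8 rose (0 at an unadjusted p under 0.05) and 3 fell in CI. In TNF 2 rose and 2 fell, and in DEX 1 rose and 3 fell. Over all 15622 genes 7.18% rose and 7.76% fell in CI, 12.6% and 9.54% in TNF, and 12.5% and 12.7% in DEX. The count over all probe sets in CI, 4342, moved with single arrays. It was 2150 without CI replicate 1, 2602 without CI replicate 2 and 2873 without control replicate 2, and the members' count was then 6, 6 and 7.

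**Figure D1:**
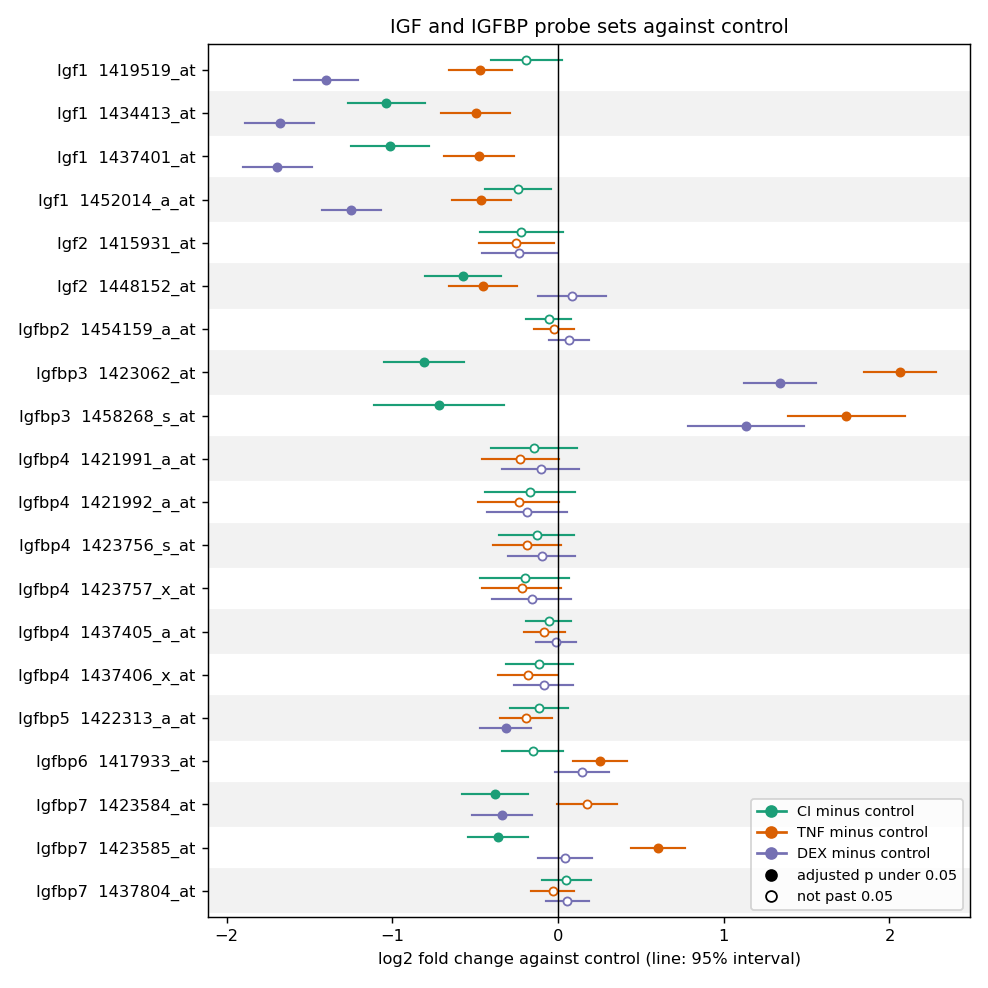
Log2 fold change against control (x axis) of the 20 tested probe sets (y axis) in CI, TNF and DEX, with 95% intervals; filled points passed at an adjusted p under 0.05. The Igfbp3 probe sets lie far to the right in TNF (2.06 and 1.74), the 4 Igf1 probe sets far to the left in DEX (-1.25 to -1.69), and the Igfbp4 probe sets close to 0.

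For the members with a probe set that itself passed in all 3 comparisons with control, Igfbp3 and Igf1, the promoter windows are shown. They run 5′ to 3′ on the gene's strand, from 250 bases before to 50 after 1 annotated start (RefSeq, GRCm38.p6), with the matches to the motifs searched in capitals. The windows are chr11:7213874-7214173 on the minus strand and chr10:87860861-87861160 on the plus strand.
Igfbp3: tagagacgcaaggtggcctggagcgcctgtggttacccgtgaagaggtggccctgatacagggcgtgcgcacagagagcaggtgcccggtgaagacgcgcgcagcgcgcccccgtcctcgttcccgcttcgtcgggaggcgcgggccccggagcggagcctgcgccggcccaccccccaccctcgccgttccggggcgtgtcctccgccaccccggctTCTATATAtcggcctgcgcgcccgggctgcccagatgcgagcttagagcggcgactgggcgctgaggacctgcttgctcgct
Igf1: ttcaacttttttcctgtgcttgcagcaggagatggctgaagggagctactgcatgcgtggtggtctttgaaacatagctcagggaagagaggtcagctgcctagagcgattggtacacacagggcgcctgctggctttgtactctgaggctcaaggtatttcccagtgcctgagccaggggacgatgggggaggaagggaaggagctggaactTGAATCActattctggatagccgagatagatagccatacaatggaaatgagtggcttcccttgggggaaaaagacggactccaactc
The Igfbp3 window is 71.7% G and C, and the Igf1 window 52.3%, where the median of 32851 windows is 52.7%. The capitals in Igfbp3 mark overlapping matches to the TATA box (TATANA), of which the forward one lies 30 to 25 bases before the start, and 24.7% of all windows hold one. The capitals in Igf1 mark the letters TGAATCA at 37 to 31 bases before the start. They match the loose AP-1 pattern searched, TGANTCA, which allows any base in the middle, and 7.81% of all windows hold such a match. Also searched, on both strands, were the Sp1 box GGGCGG (in 35.7% of all windows), the glucocorticoid receptor core site AGAACA (19%), the FOXO site GTAAACA (3.65%) and the NF-kappaB site GGANTTTCC (1.25%), and neither window holds these letters. A match is only a match of letters, and its absence covers these 300 bases alone.

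Igf1, the ligand that mediates much of growth hormone action, fell on all 4 of its probe sets in TNF and DEX and on 2 of them in CI. The brightest of its 4 probe sets, 1452014_a_at, read 3529, 2994 and 2902 in control, 2934 and 2385 in CI, 2277, 2297 and 2224 in TNF and 1348, 1295 and 1285 in DEX. All DEX arrays lay below all TNF arrays, and all TNF arrays below all control arrays, while CI replicate 1 lay within the control range. The mean went from 3142 ± 339 (SD, n = 3) in control to 1309 ± 34.1 (SD, n = 3) in DEX, which is 2.4-fold lower, with a log2 fold change of -1.25 (SE 0.0821, adjusted p = 7.66e-08). All 4 probe sets fell in DEX, by log2 fold changes of -1.69 to -1.25. In TNF they fell together within a narrow range, -0.50 to -0.46 (adjusted p from 0.0013 to 0.00369), which for 1452014_a_at was 1.39-fold. Every one of these 8 calls held under each alternative run.

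In CI the Igf1 probe sets did not move alike. Probe set 1434413_at read 2799, 2602 and 2182 in control and 1362 and 1088 in CI, a 2.06-fold decrease with a log2 fold change of -1.04 (SE 0.108, adjusted p = 5.84e-05). Probe set 1437401_at gave nearly the same picture, with 2657, 2369 and 2168 in control, 1322 and 1039.8 in CI and a change of -1.02 (SE 0.109, adjusted p = 7.18e-05). On both, the CI arrays lay well below every control and TNF array. Probe sets 1419519_at and 1452014_a_at each had 1 CI array above the lowest control array and 1 below it. Their values were -0.19 (95% interval -0.41 to 0.02, adjusted p = 0.255) and -0.24 (-0.44 to -0.044, adjusted p = 0.11), and neither passed. The value of 1452014_a_at passed in 3 of the alternatives: without CI replicate 1 (-0.39, adjusted p = 0.0365), with a replicate block (-0.27, adjusted p = 0.0465) and as the mean of all 4 probe sets (-0.62).

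**Figure D2:**
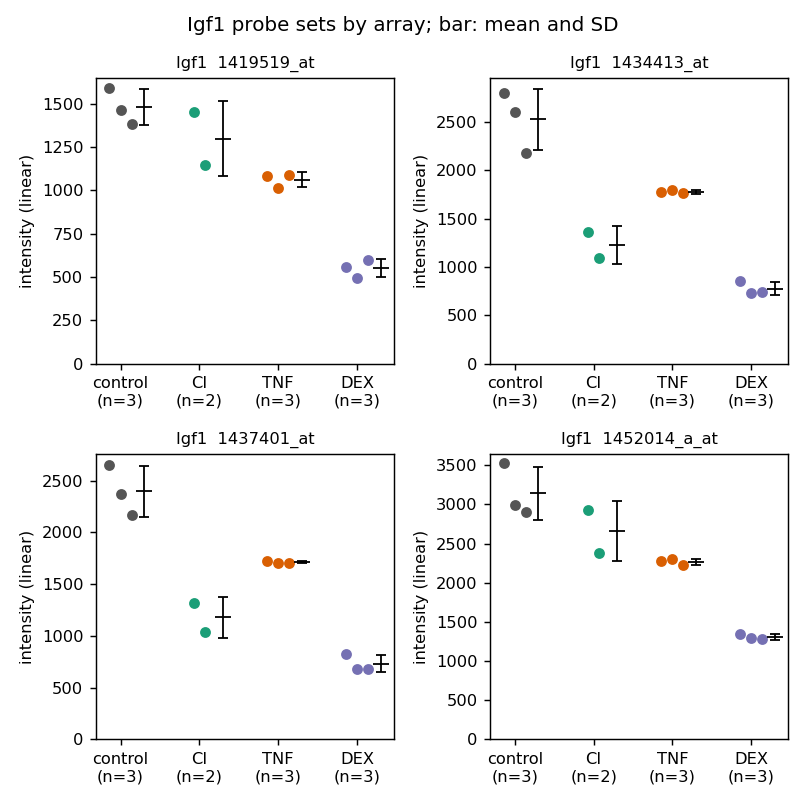
Linear intensity (y axis) of the 4 Igf1 probe sets on each array (points) by group (x axis), with the group mean and SD as bars beside the points. In DEX all 4 panels are low, while in CI 1434413_at and 1437401_at are low (1225 and 1181) and 1419519_at and 1452014_a_at stay close to control.

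The difference between probe sets was tested directly, a fit chosen after these values had been seen. In each array the log2 value of the brightest probe set of a gene was subtracted from that of each other probe set, and the differences were compared between groups over 12202 pairs. For 1434413_at the difference from 1452014_a_at was -0.33, -0.20 and -0.41 in control, -1.10 and -1.12 in CI, -0.36, -0.35 and -0.33 in TNF and -0.65, -0.81 and -0.78 in DEX. The CI arrays stood apart from all others, and the DEX arrays lay between them and control. The change of the difference was -0.80 (SE 0.0801, adjusted p = 0.000116) in CI and -0.43 (SE 0.0716, adjusted p = 0.00149) in DEX. For 1437401_at it was -0.78 (SE 0.0798, adjusted p = 0.000126) in CI and -0.45 (SE 0.0714, adjusted p = 0.00116) in DEX. Both passed in CI and in DEX under all 15 alternatives run for these differences. In TNF the values were -0.033 and -0.014 and did not pass, nor did 1419519_at in any treatment. Such differences passed for 7.65% of all pairs in CI, 6.78% in TNF and 11.6% in DEX, and for 3, 0 and 4 of the 12 member pairs. The counts over all pairs moved by more than 1.5 times without single arrays. The CI count of 934 was 385 without CI replicate 1, 407 without CI replicate 2, 559 without control replicate 1 and 563 without control replicate 2. The TNF count of 827 was 466 without control replicate 2 and 501 without control replicate 3, and the DEX count of 1412 was 938 without control replicate 3. Which transcripts each Igf1 probe set reports was not analysed here.

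**Figure D3:**
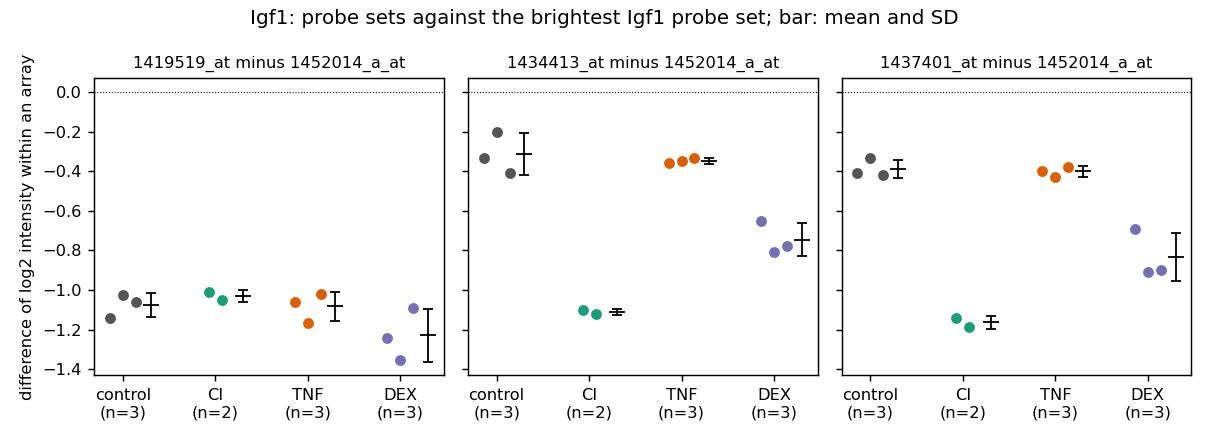
Difference of log2 intensity (y axis) between each Igf1 probe set and the brightest one within an array (points), by group (x axis), with mean and SD as bars. For 1434413_at and 1437401_at the CI arrays lie at -1.10 to -1.19, below every other array, and for 1419519_at the groups overlap.

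Igf2, the other ligand, known as a fetal growth factor, fell in CI and TNF. Its brighter probe set 1448152_at read 1287, 1178 and 961 in control, 754 and 757 in CI, 810.2, 884 and 782 in TNF and 1157, 1121 and 1336 in DEX. All CI and TNF arrays lay below the lowest control array, while the DEX arrays overlapped control. The log2 fold changes were -0.58 (SE 0.107, adjusted p = 0.00295) in CI and -0.45 (SE 0.0957, adjusted p = 0.0046) in TNF, or 1.51-fold and 1.38-fold lower. In DEX the change was 0.082 (95% interval -0.12 to 0.29, adjusted p = 0.599), and DEX was higher than TNF by 0.53 (adjusted p = 0.000789) and than CI by 0.66 (adjusted p = 0.000301). The second Igf2 probe set, 1415931_at, was dim, at 47.5 to 77.5 on all arrays, and passed in none of the 3 comparisons (-0.22, -0.25 and -0.23). Its TNF and DEX values passed without control replicate 3 or DEX replicate 3. Its difference from 1448152_at changed in CI (0.35, SE 0.0967, adjusted p = 0.04) and DEX (-0.32, SE 0.0865, adjusted p = 0.0303), and neither call held when any 1 of the 3 control arrays or DEX replicate 1 was left out. The CI call was also lost without CI replicate 1 or CI replicate 2, and the DEX call without DEX replicate 2. Both also depended on the pseudocount of this dim probe set: the CI change was 0.31 (adjusted p = 0.132) with a pseudocount of 1, and the DEX change -0.22 (adjusted p = 0.0547) with 64.

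Igfbp3, the main IGF carrier of blood plasma, rose in TNF and DEX and fell in CI. Probe set 1423062_at read 418, 357 and 325 in control, 196 and 207 in CI, 1642, 1724 and 1383 in TNF and 1068, 885 and 902 in DEX. The 4 groups did not overlap, in the order TNF, DEX, control, CI. The means were 1583 ± 178 (SD, n = 3) in TNF, 952 ± 101 (SD, n = 3) in DEX, 367 ± 47.2 (SD, n = 3) in control and 201 ± 7.69 (SD, n = 2) in CI. TNF was 4.31-fold above control, with a log2 fold change of 2.06 (SE 0.101, adjusted p = 1.32e-08), and DEX 2.59-fold, with 1.34 (SE 0.101, adjusted p = 2.84e-07). CI was 1.82-fold below control, with -0.81 (SE 0.112, adjusted p = 0.000423). Each neighbouring pair in this order differed, as DEX minus TNF was -0.72 on the log2 scale (adjusted p = 8.79e-05). Between the extremes, TNF was 7.87-fold above CI (2.87, SE 0.112, adjusted p = 1.1e-09). The probe set 1458268_s_at, whose suffix marks probes that can match more than 1 transcript, gave the same order of groups, with 1510.2, 1619.8 and 1063 in TNF, 1042, 751 and 927 in DEX, 473, 382 and 356 in control and 201 and 279 in CI. The 4 groups did not overlap here either, although TNF replicate 3 lay only just above DEX replicate 1. Its changes were 1.74, 1.13 and -0.72, and the last was lost without CI replicate 1 (adjusted p = 0.243) or control replicate 1 (adjusted p = 0.0756).

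**Figure D4:**
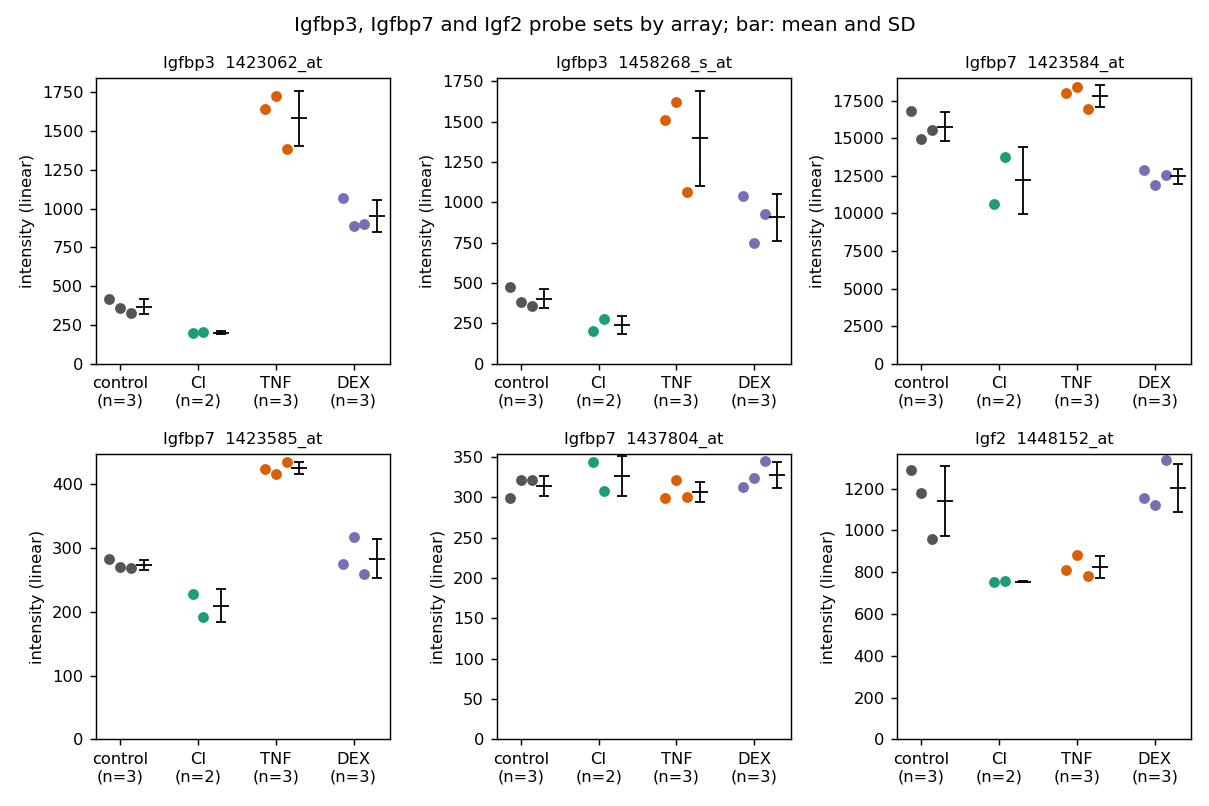
Linear intensity (y axis) of the Igfbp3, Igfbp7 and brighter Igf2 probe sets on each array (points) by group (x axis), with mean and SD as bars. Both Igfbp3 panels show the order TNF, DEX, control, CI, with means from 1583 down to 201 on 1423062_at, while 1437804_at lies level at 307 to 327.

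Igfbp7, an IGFBP-related protein of the matrix, fell in CI on 2 of its 3 probe sets, fell in DEX on 1 and rose in TNF on another. The brightest, 1423584_at, read 16839, 14957 and 15525 in control, 10627 and 13752 in CI, 18001, 18429 and 16975 in TNF and 12912, 11879 and 12579.6 in DEX. It fell in CI with a log2 fold change of -0.38 (SE 0.0937, adjusted p = 0.016) and in DEX with -0.34 (SE 0.0838, adjusted p = 0.0093), and every TNF array lay above every control array without passing (0.18, SE 0.0838, adjusted p = 0.166). TNF exceeded DEX by 1.43-fold (adjusted p = 0.000358). Probe set 1423585_at read 283, 271 and 268 in control, 228 and 192 in CI, 424, 416 and 435 in TNF and 275, 317 and 259 in DEX. It rose in TNF with 0.60 (SE 0.0754, adjusted p = 7.79e-05), fell in CI with -0.36 (SE 0.0843, adjusted p = 0.0116) and was at 0.043 in DEX (95% interval -0.12 to 0.21). The third probe set, 1437804_at, stayed between -0.033 and 0.055 in the 3 comparisons. The difference of 1423585_at from 1423584_at passed neither in TNF (0.43, SE 0.132, adjusted p = 0.0706) nor in DEX (0.38, SE 0.132, adjusted p = 0.0817), so these 2 probe sets were not shown to differ in either treatment. Both values passed when either CI array was left out (adjusted p = 0.0168 in TNF and 0.0209 in DEX), the TNF value without DEX replicate 2 (0.0447), and the DEX value with a pseudocount of 64 (0.0497). Against 1423584_at, the difference of 1437804_at changed in DEX (0.39, SE 0.115, adjusted p = 0.0413) and missed the threshold in CI (0.43, SE 0.129, adjusted p = 0.0597). The CI value passed with a pseudocount of 64 (0.42, adjusted p = 0.0381) and ran from 0.17 to 0.69 with an array left out. The DEX call was lost when any 1 control, TNF replicate 1, TNF replicate 2, DEX replicate 2 or DEX replicate 3 array was left out. It was also lost with a replicate block (adjusted p = 0.0647) and with a pseudocount of 1 (0.0517). The CI calls rested on few arrays: 1423584_at did not pass without CI replicate 1 (adjusted p = 0.259) or control replicate 1 (0.0619), and 1423585_at not without CI replicate 2 (0.157). The mean of the 3 probe sets rose in TNF (0.25, adjusted p = 0.000594) and did not pass in DEX (-0.08, adjusted p = 0.171).

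Igfbp4, the inhibitory binding protein that the protease PAPP-A cleaves, had 6 probe sets, and 0 passed in any of the 6 comparisons between groups (1 at an unadjusted p under 0.05, in TNF against control). The brightest, 1437405_a_at, read 14888, 14731 and 14522 in control, 13457 and 14880.1 in CI, 13757, 14281 and 13651 in TNF and 14773, 13872 and 15054 in DEX. Its log2 fold changes were -0.056 in CI (95% interval -0.19 to 0.079), -0.083 in TNF (-0.20 to 0.039) and -0.015 in DEX (-0.14 to 0.11). Over the 6 probe sets the values ran from -0.20 to -0.056 in CI, -0.24 to -0.083 in TNF and -0.19 to -0.015 in DEX. On all 6 the group mean was below control in each treatment, but they report 1 gene and are not independent. In TNF their adjusted p ran from 0.145 to 0.336, although all TNF arrays lay below all control arrays on each of them except 1421991_a_at. Within groups these probe sets moved together: CI replicate 1, TNF replicate 3 and DEX replicate 2 had the lowest value of their group on each of the 6. In TNF and DEX those 2 arrays also had the lowest hybridization spikes of their group, whereas in CI it was replicate 2, and the part of this in the Igfbp4 values was not tested. Probes with the suffix x can also bind related sequences, and 1423757_x_at and 1437406_x_at are of that kind.

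The remaining binding proteins had smaller changes than Igfbp3 in each comparison with control. Igfbp5, which is bound in the matrix and cleaved by the complement protease C1s, read 471, 482 and 452 in control, 399 and 466 in CI, 424, 397 and 401 in TNF and 389, 336 and 396 in DEX on 1422313_a_at. All DEX arrays were below all CI, TNF and control arrays, but only just below the lowest TNF and CI arrays. Against control the DEX change of -0.32 (SE 0.0723, adjusted p = 0.00573) passed. CI (-0.12, SE 0.0809, adjusted p = 0.434) and TNF (-0.19, SE 0.0723, adjusted p = 0.0783) did not pass against control. Nor did DEX differ from CI (-0.20, adjusted p = 0.0838) or from TNF (-0.12, adjusted p = 0.222) at the threshold. The TNF value passed with quantile normalization (adjusted p = 0.0348), with only the 2 groups in the fit (0.0313) and without DEX replicate 2 (0.0419). Igfbp6, which prefers IGF2, read 116, 113 and 120.1 in control, 103 and 103 in CI, 130.4, 156 and 139 in TNF and 124, 148 and 120.2 in DEX. Its increase in TNF, 0.25 (SE 0.076, adjusted p = 0.0338), was small and was lost without any 1 of the control arrays, TNF replicate 2 or TNF replicate 3 (adjusted p from 0.0587 to 0.142). TNF exceeded CI by 0.41 (adjusted p = 0.00241) and DEX exceeded CI by 0.30 (adjusted p = 0.0162), with no overlap of arrays in either case. Igfbp2, a binding protein linked to leptin in liver, was dim on all arrays (68 to 80.4), and its treated groups each overlapped control, with changes of -0.058, -0.027 and 0.066 that did not pass. The TNF value of Igfbp2 turned to 0.00413 with quantile normalization.

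The treatments were also compared with each other, with the spread estimated over all 4 groups. TNF was higher than CI on 7 of 20 member probe sets and lower on 0 (2 at an unadjusted p under 0.05), where 15.5% of all probe sets were higher and 14.5% lower. The 7 were the Igfbp3 pair, 1434413_at and 1437401_at of Igf1, 1423584_at and 1423585_at of Igfbp7, and Igfbp6. Igfbp7 1423585_at stood at 2.02-fold and Igf1 1434413_at at 1.45-fold in this comparison. DEX was higher than CI on 5 and lower on 4 (background 14.2% and 14.3%). The 4 lower ones were the Igf1 probe sets, and Igf2, the Igfbp3 pair, Igfbp6 and Igfbp7 1423585_at were higher. DEX was higher than TNF on 1 and lower on 8 (background 14.6% and 14.8%), the higher one being Igf2 1448152_at. The lower ones were the 4 Igf1 probe sets, both of Igfbp3 and 1423584_at and 1423585_at of Igfbp7. On the probe sets 1434413_at and 1437401_at all neighbours in the Igf1 order control, TNF, CI, DEX differed. On 1419519_at and 1452014_a_at the order was control, CI, TNF, DEX, and there only the step from TNF to DEX passed (adjusted p = 2.45e-06 and 5.98e-06).

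Other genes of the IGF axis were read on their brightest probe set, from lists chosen with earlier results of these data known. Over all 15622 genes so read, 7.18% rose and 7.76% fell in CI, 12.6% and 9.54% in TNF, and 12.5% and 12.7% in DEX, with median changes of 0.0083, -0.014 and 0.017. Of 9 tested receptors and adaptors 1 rose and 4 fell in CI, 3 rose and 0 fell (1 at an unadjusted p under 0.05) in TNF and 4 rose and 3 fell in DEX (medians -0.19, 0.13 and -0.047). Igf1r, the signalling receptor, moved in the same directions as Igfbp3. It fell in CI, from 589 ± 15.8 to 451 ± 2.33 (-0.38, adjusted p = 0.00246), and rose to 906 ± 44.4 in TNF (0.61, adjusted p = 1.08e-05) and 872 ± 58.6 in DEX (0.55, adjusted p = 1.3e-05). Igf2r, which clears IGF2 to lysosomes, did not pass (-0.045, -0.021 and -0.047). Among the adaptors Irs1 fell in DEX (-0.99, adjusted p = 1.13e-07), where Irs2 rose (0.42), and both fell in CI (-0.30 and -0.19). Grb14, known as an inhibitor of insulin receptor signalling, rose in CI (0.69) and TNF (1.27) and fell in DEX (-0.62). Insr fell in CI (-0.42) and rose in DEX (0.18, adjusted p = 0.049), and Gab1 rose in TNF (0.29).

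Growth hormone is the main known inducer of Igf1, and its receptor gene Ghr passed in none of the treatments (0.043, 0.022 and -0.09). Of 6 genes of this axis 0 rose (0 at an unadjusted p under 0.05) and 2 fell in CI, 2 rose and 0 fell (0 at an unadjusted p under 0.05) in TNF and 2 rose and 0 fell (1 at an unadjusted p under 0.05) in DEX (medians -0.14, 0.21 and 0.022). Jak2, the kinase of the growth hormone receptor, rose in TNF from 832 ± 12.8 to 1603 ± 146 (0.93, adjusted p = 4.07e-07). The transcription factor Stat5b fell in CI (-0.23) and rose in TNF (0.24). Socs2, a feedback inhibitor that growth hormone induces, fell in CI (-0.82, adjusted p = 0.0104) and rose in DEX (0.65, adjusted p = 0.0122), and Cish, of the same family, rose in DEX (0.68, adjusted p = 0.000252). In DEX, Socs2 and Cish were thus higher while Igf1 was lower.

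Proteases that cut binding proteins, with their inhibitors, changed in each treatment. Of 14 tested, 1 rose and 3 fell in CI, 7 rose and 2 fell in TNF and 2 rose and 4 fell in DEX (medians -0.09, 0.22 and 0.027). C1s1, the complement protease that cleaves IGFBP5, rose in TNF from 1713 ± 222 to 5786 ± 669 (1.75, adjusted p = 6.73e-08) and fell in CI (-0.78) and DEX (-0.49). Timp1, an inhibitor of metalloproteinases, rose in TNF (1.78) and fell in DEX (-0.45). The protease gene Adam9 rose in TNF (0.46). Adam12 rose in CI (0.54) and fell in TNF (-0.53), and Mmp2 fell in CI (-0.39) and rose in TNF (0.31) and DEX (0.25). In DEX the plasminogen activator gene Plat fell (-1.47), Stc1, a secreted inhibitor of PAPP-A, fell (-0.46), and Adam9 rose (0.40). Pappa, the IGFBP4 protease, did not pass (-0.34, -0.12 and 0.27).

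Of 9 tested other carriers and proteins with an IGFBP domain, 0 rose (0 at an unadjusted p under 0.05) and 2 fell in CI, 3 rose and 0 fell (1 at an unadjusted p under 0.05) in TNF and 0 rose (1 at an unadjusted p under 0.05) and 2 fell in DEX (medians -0.11, 0.000869 and -0.00818). Igfals, the acid-labile subunit that joins IGF and IGFBP3 or IGFBP5 in a ternary complex, fell in CI from 984 ± 226 to 549 ± 29.3 (-0.80, adjusted p = 0.00638) and in DEX to 427 ± 63.9 (-1.16, adjusted p = 5.98e-05). The TNF value, -0.29, did not pass (adjusted p = 0.198). Kazald1 fell in CI (-0.42). Ccn5, Ccn4 and Ccn2, matricellular proteins with an IGFBP-like module, rose in TNF (1.01, 0.40 and 0.37), and Ccn4 fell in DEX (-0.49). Igfbp1, the neighbour of Igfbp3 in the genome, was dim at 52.4 to 61.2 and did not pass (0.015, 0.000869 and -0.027). The other neighbouring pair, Igfbp2 and Igfbp5, had only Igfbp5 pass, and only in DEX. The antisense gene Igf1os overlaps Igf1, was at 69 to 101, and did not pass (-0.058, -0.026 and -0.20).

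**Figure D5:**
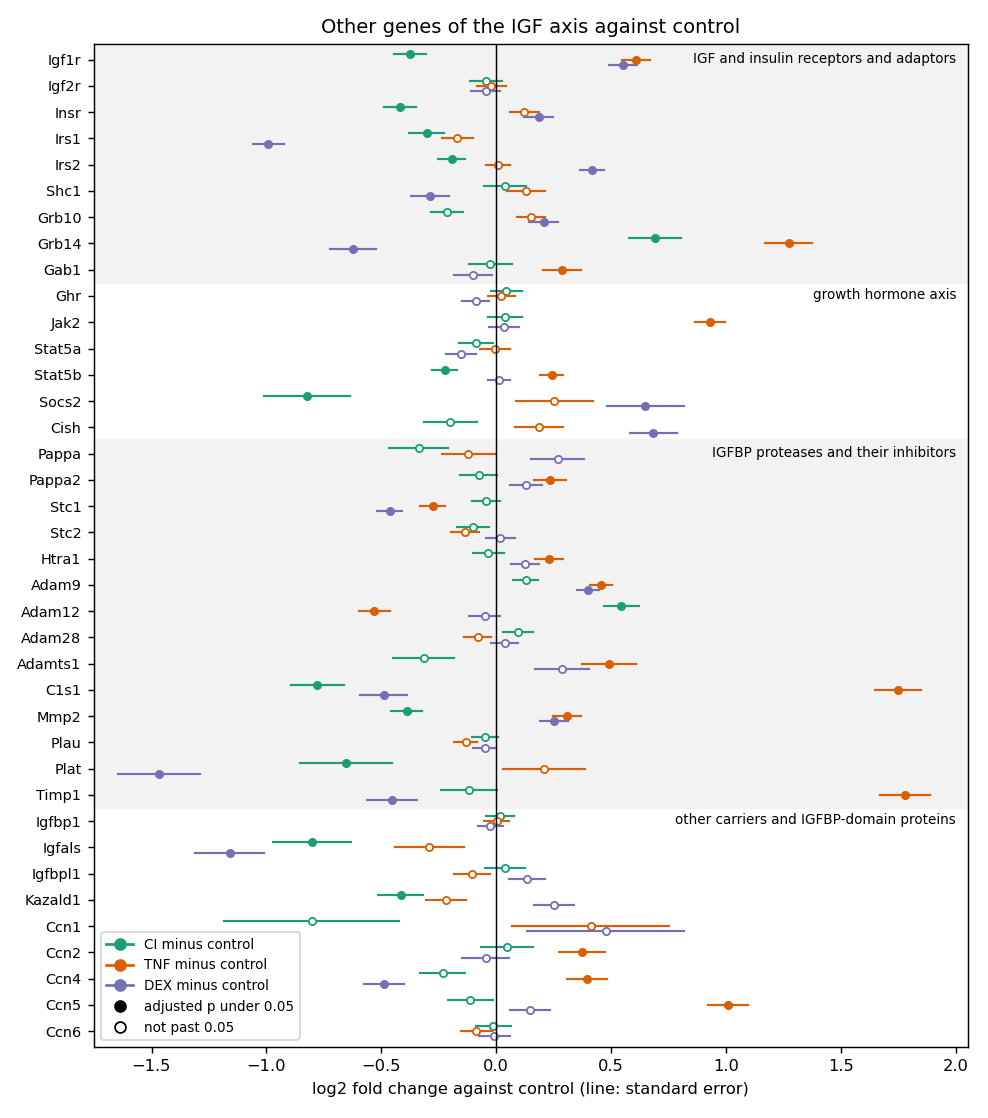
Log2 fold change against control (x axis, with standard errors) of the tested genes of 4 lists of the IGF axis on their brightest probe set (y axis): receptors and adaptors, growth hormone axis, proteases and inhibitors, and other carriers; filled points passed at an adjusted p under 0.05. Timp1 and C1s1 lie farthest to the right, in TNF (1.78 and 1.75), and Plat and Igfals farthest to the left, in DEX (-1.47 and -1.16).

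Cell-surface partners of the binding proteins passed most often in TNF. Of 10 tested, 1 rose and 0 fell (0 at an unadjusted p under 0.05) in CI, 3 rose and 1 fell in TNF and 1 rose and 1 fell in DEX (medians -0.055, 0.059 and -0.066). Lrp1, a scavenger receptor that binds IGFBP3, and the integrin gene Itgav rose in TNF (0.71 and 0.93), and Cav1, the caveolar coat protein, fell there (-0.56) and rose in CI (0.21). Itgav fell in DEX (-0.37) and Itga5 rose (0.27). Of 7 tested IGF2 mRNA binders and imprinted genes 0 rose (0 at an unadjusted p under 0.05) and 2 fell in CI, 1 rose and 3 fell in TNF and 2 rose and 3 fell in DEX (medians -0.13, -0.16 and 0.034). The imprinted genes Mest, Plagl1 and Dlk1 fell in DEX (-1.34, -1.81 and -0.996), where Igf2, imprinted as well, was at 0.082. Dlk1 and Mest also fell in CI (-0.56 and -0.36), and in TNF Plagl1 (-0.65) and Zdbf2 (-0.25) fell and Igf2bp3 rose (0.24).

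Genes known as markers of several cell types were also read, in a model that is 1 clonal line in culture. The summed intensity of 14 preadipocyte and fibroblast markers was 66762 to 75499 in control, 59746 to 62188 in CI, 75569 to 77253 in TNF and 45708 to 53062 in DEX. Of 13 tested, 0 rose (0 at an unadjusted p under 0.05) and 5 fell in CI, 5 rose and 1 fell in TNF and 2 rose and 7 fell in DEX, led by Acta2 in CI and TNF (-0.63 and 0.94) and Col3a1 in DEX (-1.19). The sum of 11 adipocyte markers was 125934 to 127594 in control, 121686 to 123612 in CI, 103311 to 106109 in TNF and 122265 to 131399 in DEX. All 11 were tested, and 1 rose and 1 fell in CI. In TNF 0 rose (0 at an unadjusted p under 0.05) and 6 fell, and in DEX 2 rose and 4 fell. The 9 macrophage and leukocyte markers summed to 4406 to 4573, 3698 to 3951, 5782 to 6274 and 3191 to 3696, of which Lyz2, Mpeg1, Cd14 and Csf1r made up most, while the leukocyte marker Ptprc was dim at 22.3 to 28.2. Endothelial markers summed to 586 to 599, 614 to 636, 562 to 584 and 638 to 648, with 3 of 6 under the filter. In such bulk RNA fewer cells of a type and less RNA per cell cannot be told apart, and the part of these markers in the IGF and IGFBP values was not tested.

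The genes whose log2 values were most like those of a member over the 11 arrays were sought among 15621 others by Pearson correlation. The arrays lie in 4 groups, so such a value describes a shared group pattern and carries no test. For Igfbp3 they were Cd14 (r = 0.998), Ccl9 (0.989) and Tmem176b (0.987). Cd14, the lipopolysaccharide co-receptor, read 418 ± 38.4 in control, 254 ± 12.3 in CI, 1201 ± 138 in TNF and 795 ± 71.5 in DEX, the order seen for Igfbp3. For Igf1 (1452014_a_at) they were Acss2 (r = 0.989), Camsap3 (0.985) and Ctdspl (0.984), for Igf2 Ucp3 (r = 0.944), Ccdc80 (0.943) and Itgbl1 (0.937), and for Igfbp7 Crtap (r = 0.975), Synpo (0.961) and Rab2a (0.955). For Igfbp5 they were Cpb1 (r = 0.952), Tuba3b (0.914) and Tecr (0.913), and for Igfbp6 Syngr2 (r = 0.951), 3110039M20Rik (0.947) and Snrpg (0.943). Among the members, the Igfbp3 pair correlated at 0.99 and the Igf2 pair at 0.49. Within Igfbp7, 1423584_at correlated with 1423585_at at 0.67 and with 1437804_at at -0.70, and the latter 2 with each other at -0.42. Within Igf1 the pairs 1419519_at with 1452014_a_at and 1434413_at with 1437401_at correlated at 0.99 and 0.999, and the 4 values across these pairs were 0.876 to 0.899.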

How the data were processed

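Expression was read from the linear intensity of 45101 probe sets in 1 table that the authors deposited. Per the labels' protocols, 3 µg of total RNA went into labelled cRNA, hybridized by Affymetrix methods. Background correction, summarisation and normalization are not given in the sources used here. Array quartiles lay within 0.0765 of each other (log2), so no further normalization was added. Within groups the arrays correlated at 0.9960 to 0.9977 (Spearman) and shared 9 to 30 identical values, so no array was a copy. Values were transformed as log2(intensity + 16), which understates changes of dim genes. The 64 control probe sets and those under the 25th percentile of mean intensity were left out. Groups came from the titles, and gene names from the platform annotation (34958 probe sets with 1 symbol, 932 with several, 9160 with none), where 34754 matched the RefSeq table by identifier.

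limma 3.58.1 in R 4.3.3 (lmFit, contrasts, eBayes, two-sided) was fitted to all 11 arrays with 7 residual and 6.54 prior degrees of freedom and Benjamini-Hochberg adjustment over all probe sets. It was tested on simulated data first. Members and lists were chosen with earlier results of these data known. Every member is named, and of each other list up to 3 genes per comparison with the smallest adjusted p, with Igf2r, Ghr, Pappa, Igfbp1, Igf1os and cell markers added after their values were seen. Alternatives were another pseudocount, filter, scaling, probe set rule, fit or replicate block, and each array left out.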

Additional observations from a re-analysis of the deposited data

How the results depend on the processing

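The 24 calls on member probe sets against control were recomputed 237 times under other settings, with 1 loss (Igfbp7 1423584_at in DEX as a mean of probe sets), and 264 times with an array left out, with 10 losses, all given in the results. No call changed sign. The 36 values that did not pass were recomputed 342 times under other settings, and 5 of these recomputations passed. With an array left out they were recomputed 396 times, and 6 of these passed, some of them for the same value. Some values that had not passed changed sign: Igfbp2 in TNF (0.00413, quantile), Igf2 in DEX (-0.0762, mean of probe sets), and the difference of Igfbp7 1423585_at in CI (-0.00567, pseudocount 1, and -0.0103, quantile) and of Igf1 1419519_at in TNF (0.00281, pseudocount 64). With an array left out, those that changed sign ran CI Igfbp4 1421992_a_at from -0.38 to 0.032, CI Igfbp4 1437405_a_at from -0.13 to 0.016, CI Igfbp7 1437804_at from -0.025 to 0.12, TNF Igfbp2 1454159_a_at from -0.066 to 0.00682, DEX Igf2 1448152_at from -0.035 to 0.17, DEX Igfbp4 1423756_s_at from -0.17 to 0.00799, DEX Igfbp4 1437405_a_at from -0.039 to 0.019, DEX Igfbp4 1437406_x_at from -0.17 to 0.00621, DEX Igfbp7 1423585_at from -0.036 to 0.10, CI difference of Igfbp4 1421991_a_at from -0.16 to 0.0064, CI difference of Igfbp4 1421992_a_at from -0.25 to 0.016, CI difference of Igfbp7 1423585_at from -0.28 to 0.32, CI difference of Igfbp3 1458268_s_at from -0.094 to 0.28, TNF difference of Igf1 1419519_at from -0.039 to 0.035, TNF difference of Igf1 1434413_at from -0.081 to 0.023, TNF difference of Igf1 1437401_at from -0.029 to 0.012, DEX difference of Igfbp4 1421991_a_at from -0.17 to 0.00294. With 1 probe set per gene (15622 genes, 8 of them members), the counts fell because fewer features were tested. For CI, TNF and DEX against control, TNF against CI, DEX against CI and DEX against TNF they were 2696, 3931, 4316, 5656, 5311, 5645 genes and 3, 4, 4, 3, 4, 4 members on the brightest probe set, and 2509, 3856, 4295, 5571, 5178, 5704 and 4, 5, 3, 3, 5, 4 on the mean. With an array left out, CI against control ran from 2150 to 4918 probe sets, and the counts of probe set differences from 385 to 1052 in CI, 466 to 968 in TNF and 938 to 1399 in DEX. The labels share replicate numbers. Deviations from the group mean correlated above 0.1 in 5 of 15 same-numbered pairs and in 12 of 30 differently numbered pairs. The deviations of the 2 CI arrays mirror each other, so such counts cannot decide whether arrays are paired. The numbers were not taken to pair them. With a replicate block 4214, 6265 and 7522 probe sets passed in CI, TNF and DEX, of them 8, 9 and 8 members. The cause of these changes was not tested, 2 CI arrays limit that comparison most, and dim probe sets lie close to background.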
